A study of Mus musculus with 8 samples.

Results

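The interferon-inducible GTPase genes studied here are 10 mouse genes of 2 families, the immunity-related GTPases (IRG: BC023105, Gm4841, Iigp1, Igtp, Irgm1, Irgm2 and Tgtp1) and the guanylate-binding proteins (GBP: Gbp2, Gbp3 and Gbp7). They were read in 8 RNA-seq libraries of whole kidney and stand among 37583 counted genes, of which 14433 had enough reads to be tested. Of the 10 members, 9 passed that filter on low counts, and Tgtp1 did not. The family was chosen by the CPM of BC023105 and Gm4841, which were high in 3 wildtype libraries and no others, so the values of those 2 genes are given as a description with no test, and the question is whether the other 8 members have the same profile.

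In the study, 4 libraries are labelled knockout, from mice carrying Six2Cre, both alleles of TFAP2A floxed and 1 of the 2 alleles of TFAP2B floxed (fl/WT), and 4 are labelled as control littermates. A Six2-driven Cre acts in nephron progenitors and the epithelium that descends from them, and the stroma, vessels, collecting ducts and immune cells of a whole kidney lie outside that lineage. Age, sex, litter and batch are not given, nor whether the controls carried Cre or floxed alleles. Nothing in the labels ties each library to its own animal, so a p-value here measures spread among libraries that may be partly technical. Libraries are named by label and replicate number, such as knockout 2 or wildtype 3. The 2 target genes did not check the labels, since neither was lower in the knockout-labelled libraries: the log2 difference, knockout minus wildtype, was 0.26 (SE 0.24) for Tfap2a and 0.03 (SE 0.22) for Tfap2b. The floxed exons are not given, and reads outside them would not show a deletion. Every direction below therefore refers to the label.

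Interferon-gamma binds its receptor, activates the kinases Jak1 and Jak2 and so turns on genes with gamma-activated sites in their promoters. The transcription factors induced next, such as Irf1, bind interferon-stimulated response elements. In mice both families of GTPases are among the most strongly induced targets of interferon-gamma. IRG effectors and GBPs gather on the membranes around intracellular parasites and bacteria and help to break them, and the Irgm proteins are regulators that sit on the cell's own membranes.

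Promoter stretches are shown because the members that share a motif did not all share a profile over the libraries. RefSeq promoter windows on GRCm38.p6, running from 250 bases before to 50 bases after a start site, were found for 7 of the 10 members: Igtp, Irgm1, Irgm2, Tgtp1, Gbp2, Gbp3 and Gbp7. Both strands were searched for the core of the interferon-stimulated response element, which is GAAA, any 2 bases and GAAA (TTTC, any 2 bases and TTTC on the other strand), and for the gamma-activated site, TTCNNNGAA, which reads the same on both strands. Capitals mark the matches, and each stretch is written 5′ to 3′ on the strand of its gene.
Igtp (chr11:58199496-58199546, + strand): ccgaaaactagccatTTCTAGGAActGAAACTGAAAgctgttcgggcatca
Irgm2 (chr11:58214887-58214937, + strand): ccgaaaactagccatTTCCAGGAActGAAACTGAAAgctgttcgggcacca
Tgtp1 (chr11:48992299-48992349, - strand): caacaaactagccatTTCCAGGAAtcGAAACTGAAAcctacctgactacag
Irgm1 (chr11:48871420-48871465, - strand): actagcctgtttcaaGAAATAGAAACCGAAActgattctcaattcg
Gbp2 (chr3:142620589-142620628, + strand): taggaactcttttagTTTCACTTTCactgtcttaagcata
Gbp3 (chr3:142559984-142560029, + strand): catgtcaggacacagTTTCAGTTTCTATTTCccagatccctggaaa
Gbp7 (chr3:142530215-142530307, + strand): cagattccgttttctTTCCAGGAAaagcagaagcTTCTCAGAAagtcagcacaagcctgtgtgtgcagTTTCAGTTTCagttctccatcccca

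Each of the 7 genes had a window with the response element core, which was found in 3.44% of the 32851 promoter windows in the table. Gbp3 also had another window, at chr3:142560106-142560405, that held neither motif. In Irgm1 and Gbp3 the capitals are 2 overlapping copies of it. The gamma-activated site was found in 4 of the 7, Igtp, Irgm2, Tgtp1 and Gbp7, and in 8.30% of all windows, and both motifs together in 0.454% of all windows. In Igtp, Irgm2 and Tgtp1 the gamma-activated site began 11 bases before the core, in the same order and on the same strand. Igtp and Irgm2 shared an unbroken run of 61 bases in their windows, Irgm2 and Tgtp1 one of 20 bases, and every other pair of members at most 14 bases. A match describes these letters and is no evidence that a factor binds there.

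**Figure D1:**
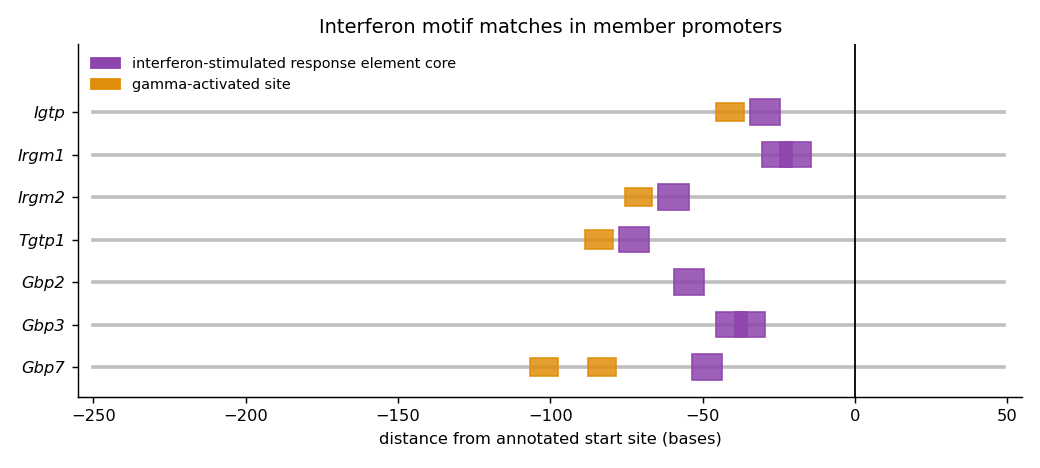
Positions of motif matches in the 7 member promoters, with distance from the annotated start site in bases on the x axis and 1 gene per line; purple boxes are the response element core and orange boxes the gamma-activated site. The core lies within 77 bases before the start in each gene, and Gbp7 has 2 gamma-activated sites. The other Gbp3 window, which held no match, is not drawn.

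Counts assigned to genes ranged between 13871861 and 16629301 per library, and 3 reads in the shallowest library, knockout 3, correspond to 0.223 CPM, counts per library scaled to a common total. Values below are CPM scaled by the trimmed mean of M values (TMM), and intervals cover the spread between libraries under that scaling. Knockout 2 and wildtype 1 contained adrenal transcripts, with Star at 350 and 335 CPM against at most 6.15 CPM in each other library. Knockout 2 and knockout 4 had high heat-shock transcripts, knockout 4 and wildtype 4 stood apart in clock genes, and knockout 1 had the most erythroid transcripts. Kidney tubule markers were read in every library, with Umod at 3560 to 5010 CPM, Slc34a1 at 3260 to 5520 CPM and Aqp2 at 241 to 763 CPM. Aqp2 had a log2 difference of 0.79 (SE 0.31, edgeR adjusted p = 0.957). Kl (klotho) was at 792 to 1220 CPM.

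BC023105, annotated in GENCODE M21 as a processed pseudogene of the IRG family, was at 1.08, 0.702, 1.11 and 1.47 CPM in knockout 1 to 4, against 0.476, 10.1, 8.22 and 6.14 CPM in wildtype 1 to 4. Wildtype 2, 3 and 4 were far above the other 5 libraries, and wildtype 1 was the lowest of all 8. The means were 1.09 ± 0.314 CPM in the knockout-labelled libraries and 6.23 ± 4.16 CPM in the wildtype-labelled ones (SD, n = 4 each), a log2 difference of -2.51 (SE 0.70) that is given with no test because this pattern chose the family.

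Gm4841, an IRG family member that lies near BC023105, had 8, 10, 13 and 15 reads in knockout 1 to 4 and 2, 72, 97 and 74 reads in wildtype 1 to 4. These correspond to 0.508, 0.638, 0.965 and 1.00 CPM in the knockout-labelled libraries, against 0.136, 4.51, 6.13 and 4.78 CPM in the wildtype-labelled ones. Here too wildtype 2, 3 and 4 were the high libraries and wildtype 1 the lowest, with fewer reads than the 3 that would put it above the detection floor. The log2 difference was -2.32 (SE 0.75), again with no test.

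**Figure D2:**
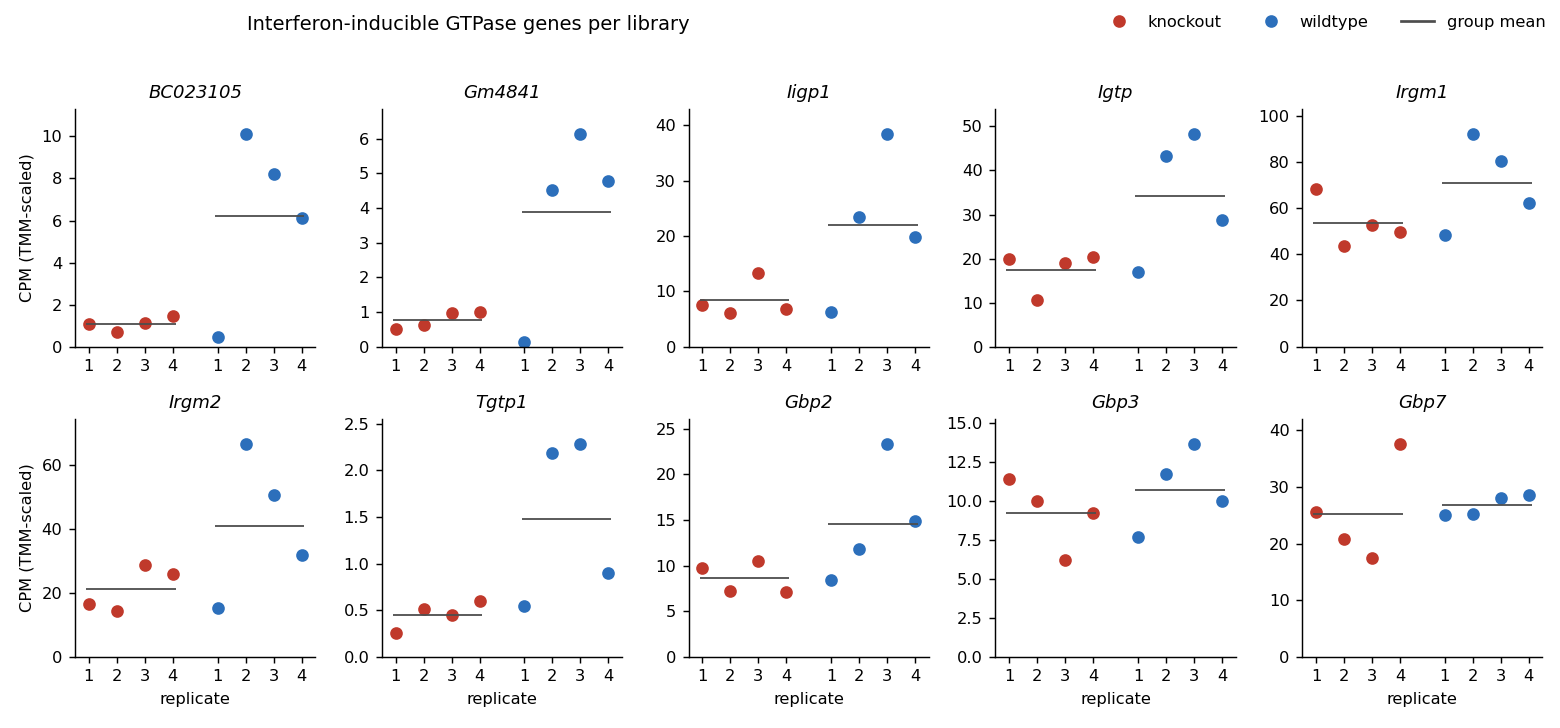
CPM of each of the 10 genes (y axis, TMM-scaled, one scale per panel starting at 0) by library (x axis, replicate number within label); points are libraries, red knockout-labelled and blue wildtype-labelled, and lines are group means. Wildtype 2, 3 and 4 are the top 3 points in 7 panels, while Gbp7 has its highest point in knockout 4, at 37.5 CPM.

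Among the IRG effectors, Iigp1 (also called Irga6), which is loaded onto the membranes around parasites, was at 7.49, 6.12, 13.4 and 6.75 CPM in knockout 1 to 4, against 6.33, 23.4, 38.4 and 19.9 CPM in wildtype 1 to 4. Wildtype 2, 3 and 4 were the highest libraries, and wildtype 1 lay within the range of the knockout-labelled libraries, so the groups overlapped. The log2 difference was -1.39 (SE 0.49), with -2.50 to -0.27 as its 95% interval, and it did not pass edgeR's quasi-likelihood test with Benjamini-Hochberg adjustment over all tested genes (adjusted p = 0.957).

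Tgtp1 (also called Irgb6), another effector loaded onto parasite membranes, was the least abundant member, with 4, 8, 6 and 9 reads in knockout 1 to 4 and 8, 35, 36 and 14 reads in wildtype 1 to 4. In CPM these were 0.254, 0.510, 0.445 and 0.601 in the knockout-labelled libraries, against 0.544, 2.19, 2.28 and 0.904 in the wildtype-labelled ones. The same 3 wildtype libraries were highest, with wildtype 4 close to the lower libraries. When no filter on low counts was applied the log2 difference was -1.70 (SE 0.47, adjusted p = 0.838 in edgeR). Its reads are hard to place: 81.2% of the 50-base words in its transcripts, and 73.1% of the 100-base words, also occur in another gene, mostly its near-copy Tgtp2, so the split between these 2 genes is uncertain.

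The 3 Irgm genes encode the regulators that hold the effectors off the cell's own membranes. Igtp (Irgm3) was at 19.8, 10.6, 18.9 and 20.3 CPM in knockout 1 to 4, against 16.9, 43.3, 48.2 and 28.8 CPM in wildtype 1 to 4, with wildtype 2, 3 and 4 above every other library and the groups overlapping through wildtype 1. Its log2 difference was -0.98 (SE 0.32, edgeR adjusted p = 0.957), with -1.71 to -0.25 as its 95% interval. The lowest library was knockout 2, 1 of the 2 with adrenal transcripts.

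Irgm2 had the same 3 libraries at the top, with wildtype 2 rather than wildtype 3 the highest. It was at 16.5, 14.2, 28.6 and 26.0 CPM in knockout 1 to 4, against 15.1, 66.4, 50.7 and 31.8 CPM in wildtype 1 to 4, with a log2 difference of -0.94 (SE 0.43, edgeR adjusted p = 0.957), with -1.92 to 0.03 as its 95% interval. The annotated exons of Igtp and Irgm2 overlap on chromosome 11 and their transcripts share 11.8% of the 50-base words of Igtp, so reads may be shared between these 2 genes, and the part of such reads in their likeness was not tested.

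Irgm1 was the regulator with the most reads and the smallest difference. It stood at 68.1, 43.4, 52.6 and 49.5 CPM in knockout 1 to 4, against 48.3, 91.9, 80.3 and 62.3 CPM in wildtype 1 to 4. Wildtype 2 and 3 were the highest libraries, and knockout 1 was above wildtype 4. The log2 difference was -0.41 (SE 0.20, edgeR adjusted p = 0.957), with -0.85 to 0.04 as its 95% interval.

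Of the GBPs, Gbp2, which gathers on parasite vacuoles, was the member closest to the IRG pattern. It was at 9.71, 7.21, 10.5 and 7.08 CPM in knockout 1 to 4, against 8.37, 11.8, 23.3 and 14.9 CPM in wildtype 1 to 4, and wildtype 2, 3 and 4 were its 3 highest libraries, though wildtype 2 was little above knockout 3. The log2 difference was -0.76 (SE 0.28, edgeR adjusted p = 0.957), with -1.39 to -0.13 as its 95% interval.

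Gbp3 was at 11.4, 9.95, 6.23 and 9.22 CPM in knockout 1 to 4, against 7.69, 11.7, 13.6 and 9.95 CPM in wildtype 1 to 4, so the groups were interleaved. Its log2 difference was -0.22 (SE 0.22, edgeR adjusted p = 0.957), with -0.70 to 0.26 as its 95% interval. Gbp7 was at 25.6, 20.8, 17.4 and 37.5 CPM in knockout 1 to 4, against 25.0, 25.2, 28.1 and 28.6 CPM in wildtype 1 to 4, with its highest and its lowest library both labelled knockout. Its log2 difference was -0.08 (SE 0.20, edgeR adjusted p = 0.973), with -0.53 to 0.37 as its 95% interval.

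**Figure D3:**
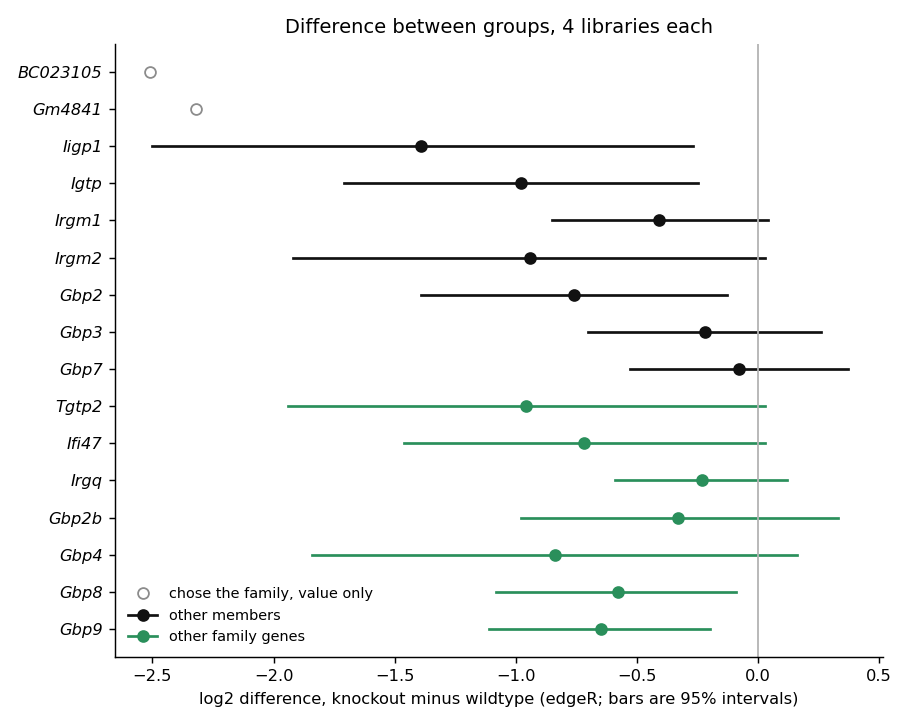
Log2 difference, knockout minus wildtype (x axis), of the 9 tested members and 7 other tested genes of the same 2 families (y axis); filled points are edgeR estimates with 95% intervals, and open points are the 2 genes that chose the family, shown as values only. The other members lie between -1.39 for Iigp1 and -0.08 for Gbp7.

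No member was called between the labels at an adjusted p under 0.05. edgeR called 0 of the 14433 genes (0%), while 265 (1.84%) were lower and 313 (2.17%) higher at an unadjusted p under 0.05. limma-voom called 0 of the same 14433 genes, with 592 at an unadjusted p under 0.05. DESeq2, run without that filter on low counts, called 4 of 24562 genes, with 715 at an unadjusted p under 0.05. At an unadjusted p under 0.05, 3 of the 7 tested members other than BC023105 and Gm4841 were lower in the knockout-labelled libraries: Iigp1, Igtp and Gbp2. All 7 had a negative log2 difference, with a median of -0.76, beside 48.7% negative and a median of 0.006 over all tested genes. Each of the 7 had at least 6.12 CPM in every library, so passing the filter did not depend on the group. None of the 10 members separated the groups completely, which 0.942% of all genes did with the knockout-labelled libraries lower and 1.03% with them higher.

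The order of the libraries shows what these group values hold. Wildtype 2, 3 and 4 were the 3 highest libraries in 5 of the 8 members that the choice did not rest on, Iigp1, Igtp, Irgm2, Tgtp1 and Gbp2, and in 608 of all 14433 tested genes (4.21%). Irgm1, Gbp3 and Gbp7 were the exceptions. At the low end, wildtype 1 was the lowest or second lowest library for BC023105, Gm4841, Iigp1, Igtp, Irgm1, Irgm2 and Gbp3. Summed over the 10 members the level was 160, 114, 150 and 159 CPM in knockout 1 to 4, against 129, 290, 299 and 208 CPM in wildtype 1 to 4. The 7 IRG genes gave most of this spread, with 114, 76.2, 116 and 106 CPM in knockout 1 to 4 against 87.8, 242, 234 and 155 CPM in wildtype 1 to 4. The 3 GBP genes summed to 46.7, 38.0, 34.1 and 53.8 CPM in knockout 1 to 4, against 41.1, 48.7, 65.0 and 53.4 CPM in wildtype 1 to 4. The 2 libraries with adrenal transcripts, knockout 2 and wildtype 1, had the lowest sums of the 10 members, and their part in the result was not tested.

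Wildtype 1 was the lowest wildtype-labelled library for each of the 8 other members. Leaving it out was therefore bound to make their differences larger, and this growth is not read as a result. Without wildtype 1 the differences were larger for all 8, and still none passed. Iigp1 had a log2 difference of -1.69 (SE 0.31, edgeR adjusted p = 0.505), Igtp -1.20 (SE 0.24, edgeR adjusted p = 0.563), and Gbp3 and Gbp7 stayed at -0.35 and -0.11. In that fit 2 of 14657 genes were called lower (0.0136%), and both were the genes that chose the family, BC023105 and Gm4841, so nothing is read from it. At an unadjusted p under 0.05, 3.96% of genes were lower in that fit. Without both libraries with adrenal transcripts edgeR called 0 of 14500 genes, with 345 (2.38%) lower at an unadjusted p under 0.05, and Iigp1 was at -1.56 (SE 0.33, edgeR adjusted p = 0.818). In whole kidney, fewer cells that express these genes and less RNA per cell cannot be told apart.

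Levels between genes are comparable only per length, here CPM per kilobase of annotated exon. In the knockout-labelled libraries the order was Irgm1 (9.19), Igtp (8.61), Irgm2 (5.78), Gbp7 (4.51), Gbp2 (3.42), Gbp3 (2.82), Iigp1 (1.45), BC023105 (0.897), Gm4841 (0.274) and Tgtp1 (0.141). Neighbours in that order were apart by more than their SDs only after Gbp3, after BC023105 and after Gm4841. In the wildtype-labelled libraries the order was Igtp (17.0), Irgm1 (12.2), Irgm2 (11.1), Gbp2 (5.79), BC023105 (5.12), Gbp7 (4.77), Iigp1 (3.78), Gbp3 (3.29), Gm4841 (1.37) and Tgtp1 (0.461), and only Gbp3 and Gm4841 were apart. The 3 regulators had the highest means under both labels without being apart from the next gene by more than the SDs, and BC023105 was at rank 8 under the knockout label and at rank 5 under the wildtype label.

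Gm4841, Iigp1 and BC023105 lie together on chromosome 18 in GENCODE M21 (GRCm38): Gm4841 at chr18:60268305-60273272 on the - strand, Iigp1 at chr18:60376027-60392634 on the + strand and BC023105 at chr18:60441765-60442980 on the + strand. Their transcripts share few long words. At 50 bases 14.7% of the words of BC023105 also occur in Gm4841, at 100 bases none do, and for Iigp1 1.69% of the 50-base words occur in any other gene. The read length is not given in the sources used here. Igtp (chr11:58199556-58207591) and Irgm2 (chr11:58199618-58222782) form a second group, Irgm1 (chr11:48861968-48871683) and Tgtp1 (chr11:48985327-48994172) lie together elsewhere on chromosome 11, and the 3 GBP members are on chromosome 3 between Gbp7 at chr3:142530342-142550149 and Gbp2 at chr3:142620602-142638008.

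Wildtype 2, 3 and 4 were the highest libraries in 4.21% of all tested genes. Of the 10 nearest tested genes around the chromosome 18 group, 5 on each side, 1 had these libraries on top. This was Isoc1, at 81.8, 76.9, 90.8 and 90.8 CPM in knockout 1 to 4, against 69.5, 96.3, 93.2 and 107 CPM in wildtype 1 to 4, with wildtype 1 lowest as in BC023105 and Gm4841 and a log2 difference of -0.11 (SE 0.13). The genes closest to the group had other orders. Smim3, the next tested gene after BC023105, was at 6.53, 6.83, 6.53 and 5.88 CPM in knockout 1 to 4, against 6.26, 5.95, 6.26 and 6.07 CPM in wildtype 1 to 4. Dctn4, a subunit of the dynactin motor complex, was at 60.3, 61.9, 65.2 and 64.1 CPM in knockout 1 to 4, against 58.0, 61.4, 61.1 and 65.0 CPM in wildtype 1 to 4. On the other side Gm4951, which shares 1.47% of the 50-base words of Iigp1, was at 0.571, 0.638, 0.668 and 0.601 CPM in knockout 1 to 4, against 1.02, 0.939, 1.39 and 0.194 CPM in wildtype 1 to 4, with its lowest value in wildtype 4, where BC023105 and Gm4841 were high. These values rest on 3 to 22 reads, and the log2 difference was -0.51 (SE 0.47). Gm4951 was not on the lists of family genes used here, and whether it belongs to the IRG family was not checked.

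**Figure D4:**
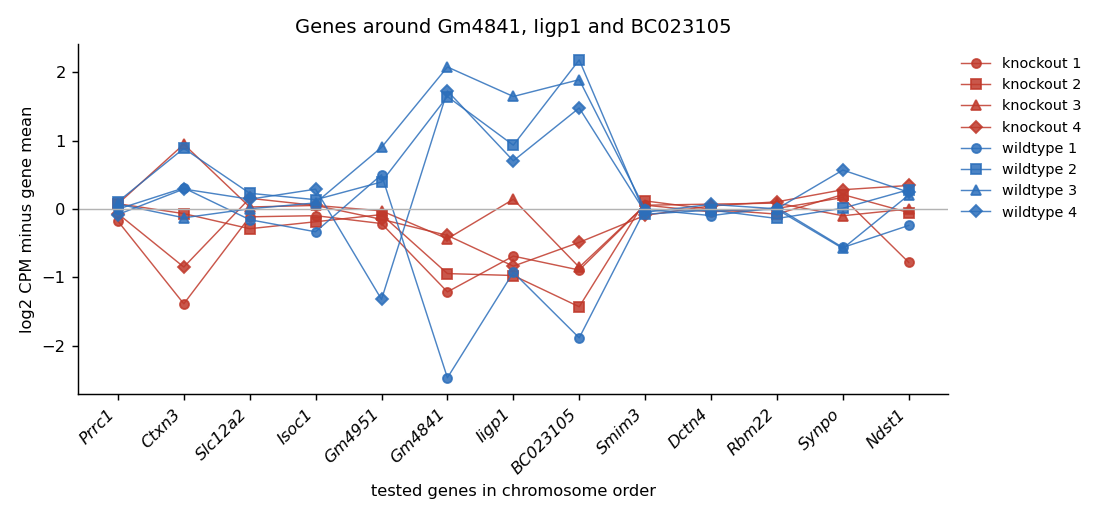
Log2 CPM minus the mean of each gene over the 8 libraries (y axis) for Gm4841, Iigp1 and BC023105 and the 5 tested genes on each side, in chromosome order (x axis); each line is a library, red knockout-labelled and blue wildtype-labelled. The wildtype 2, 3 and 4 lines are above the rest at the 3 members and meet the other lines at Smim3.

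Other genes of the 2 families were taken from a list, and all of that list was described. The list may not hold every gene of the families, and the tested neighbour Gm4951 was not on it. Of 10 other IRG genes 3 were tested, and none passed at either threshold; Gm12187 and Irgc1 had no reads, and the other 5 had at most 0.814 CPM in any library. Ifi47, an IRG effector also called Irgd, was at 4.76, 2.62, 4.60 and 2.87 CPM in knockout 1 to 4, against 3.20, 7.26, 9.23 and 4.65 CPM in wildtype 1 to 4, a log2 difference of -0.72 (SE 0.34). Wildtype 2 and 3 were its highest libraries, and knockout 1 was above wildtype 4. Tgtp2, the near-copy of Tgtp1, had a log2 difference of -0.96 (SE 0.44) at 0.191 to 1.11 CPM in the knockout-labelled libraries and 0.817 to 1.64 CPM in the wildtype-labelled ones. Irgq, an IRG-like gene of another chromosome, was at 30.6 to 48.5 CPM in the knockout-labelled libraries and 39.3 to 55.1 CPM in the wildtype-labelled ones, with a log2 difference of -0.23 (SE 0.16).

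Of 9 other GBP genes 5 could be matched to a counted gene and 4 were tested, with a median log2 difference of -0.62. None passed the adjusted threshold (edgeR adjusted p = 0.957 for each). Gbp8 and Gbp9 were lower at an unadjusted p under 0.05, as were 1.84% of all tested genes. Gbp9 was at 8.12, 4.78, 5.49 and 5.08 CPM in knockout 1 to 4, against 7.49, 9.39, 11.4 and 8.59 CPM in wildtype 1 to 4, with wildtype 2, 3 and 4 on top and a log2 difference of -0.65 (SE 0.21). Gbp8 had its highest value in wildtype 1, at 3.06 CPM, and a log2 difference of -0.58 (SE 0.22). Gbp4 was at 6.72, 4.66, 12.4 and 4.61 CPM in knockout 1 to 4, against 5.38, 14.1, 21.3 and 9.82 CPM in wildtype 1 to 4, a log2 difference of -0.84 (SE 0.44). Gbp4, Gbp8 and Gbp9 share annotated exon bases on chromosome 5, so reads may be split between them. Gbp2b had a log2 difference of -0.33 (SE 0.30), and the antiviral large GTPases Mx1 and Mx2 had -0.61 (SE 0.48) and -0.02 (SE 0.42).

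The interferons themselves were hardly read. Ifng, which encodes interferon-gamma, had 0, 1, 1 and 1 reads in knockout 1 to 4 and 0, 1, 1 and 1 in wildtype 1 to 4, all under the floor of 3 reads, so a difference was not detectable at this depth. Ifnb1 had 1 read in wildtype 3 and none elsewhere, and Ifna4, Ifnl2 and Ifnl3 had none. The receptors and kinases of the pathway were well read, and 8 of the 13 genes in that list were tested, with a median log2 difference of -0.04 and none past either threshold. Ifngr1, the ligand-binding chain of the interferon-gamma receptor, averaged 36.9 ± 6.33 CPM in the knockout-labelled libraries and 32.1 ± 2.75 CPM in the wildtype-labelled ones (SD, n = 4 each), a log2 difference of 0.20 (SE 0.13). Jak1, its kinase, averaged 196 ± 16.6 CPM in the knockout-labelled libraries and 220 ± 26.4 CPM in the wildtype-labelled ones, a log2 difference of -0.17 (SE 0.11).

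The list of transcription factors and inhibitors of the pathway gave 13 tested genes with a median log2 difference of -0.09. Of these 2, Nlrc5 and Irf7, were lower at an unadjusted p under 0.05, as were 1.84% of all tested genes. Nlrc5, which drives the genes of class I antigen presentation, was at 2.35, 2.30, 4.60 and 2.27 CPM in knockout 1 to 4, against 2.93, 9.45, 10.2 and 5.62 CPM in wildtype 1 to 4. Its log2 difference was -1.30 (SE 0.39, edgeR adjusted p = 0.957). Wildtype 1 lay within the range of the knockout-labelled libraries. Batf2, named after its values were seen, was the other gene of this list with wildtype 2, 3 and 4 on top. That order was found in 4.21% of all tested genes. Irf1 was at 19.8, 16.8, 19.6 and 23.0 CPM in knockout 1 to 4, against 18.9, 26.0, 29.9 and 18.7 CPM in wildtype 1 to 4, so wildtype 4 was not among its high libraries. Stat3, the most abundant of the list, had a log2 difference of 0.06 (SE 0.13).

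Other targets of interferon-gamma numbered 20 tested genes of 22, with a median log2 difference of -0.24. Of these 16 were negative, 3 were lower and 1 was higher at an unadjusted p under 0.05, and none passed the adjusted threshold. Over all tested genes 48.7% were negative, and 1.84% were lower and 2.17% higher at that unadjusted threshold. H2-D1, a class I antigen-presenting molecule, was at 476, 325, 333 and 313 CPM in knockout 1 to 4, against 445, 507, 517 and 488 CPM in wildtype 1 to 4, with wildtype 2, 3 and 4 on top and a log2 difference of -0.44 (SE 0.14, edgeR adjusted p = 0.957). Cd274, the immune checkpoint ligand PD-L1, was the 1 gene of the list whose groups did not overlap. In 0.942% of all tested genes the groups did not overlap with the knockout-labelled libraries lower. Cd274 was at 3.05 to 4.34 CPM in the knockout-labelled libraries and 4.36 to 6.51 CPM in the wildtype-labelled ones. The gap was narrow, with 65 reads in knockout 4 and 64 in wildtype 1. Its log2 difference was -0.52 (SE 0.19). Tap1, which pumps peptides for class I molecules, was at 14.7, 11.4, 12.4 and 11.8 CPM in knockout 1 to 4, against 11, 22.5, 25.1 and 14.4 CPM in wildtype 1 to 4. Wildtype 2, 3 and 4 were on top in 3 of the 20 tested targets, beside 4.21% of all tested genes. These were H2-D1, Cd274 and the chemokine gene Cxcl10, which was named after its values were seen. B2m, the most abundant target, peaked in knockout 1 at 619 CPM and had a log2 difference of -0.04 (SE 0.24).

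Targets of type I interferon numbered 22 tested genes of 23, with 13 negative, 9 positive and a median log2 difference of -0.06. At an unadjusted p under 0.05, 2 were lower, Zbp1 and Parp14, and 0 were higher, and none passed the adjusted threshold. Wildtype 2, 3 and 4 were on top in 3 of the 22, Oas2, Zbp1 and Parp14. Over all tested genes 48.7% were negative, and 1.84% were lower and 2.17% higher at that unadjusted threshold. Those libraries were on top in 4.21% of all tested genes. Zbp1, a sensor of Z-form nucleic acids, was at 0.952, 0.893, 0.742 and 0.668 CPM in knockout 1 to 4, against 0.544, 2.32, 2.21 and 1.23 CPM in wildtype 1 to 4, a log2 difference of -0.95 (SE 0.42, edgeR adjusted p = 0.957). The antiviral genes Ifit2 and Ifit3 had log2 differences of 0.12 (SE 0.13) and 0.19 (SE 0.20), and Rsad2 was highest in knockout 1, at 69.6 CPM against 20.9 to 22.2 CPM in the wildtype-labelled libraries.

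**Figure D5:**
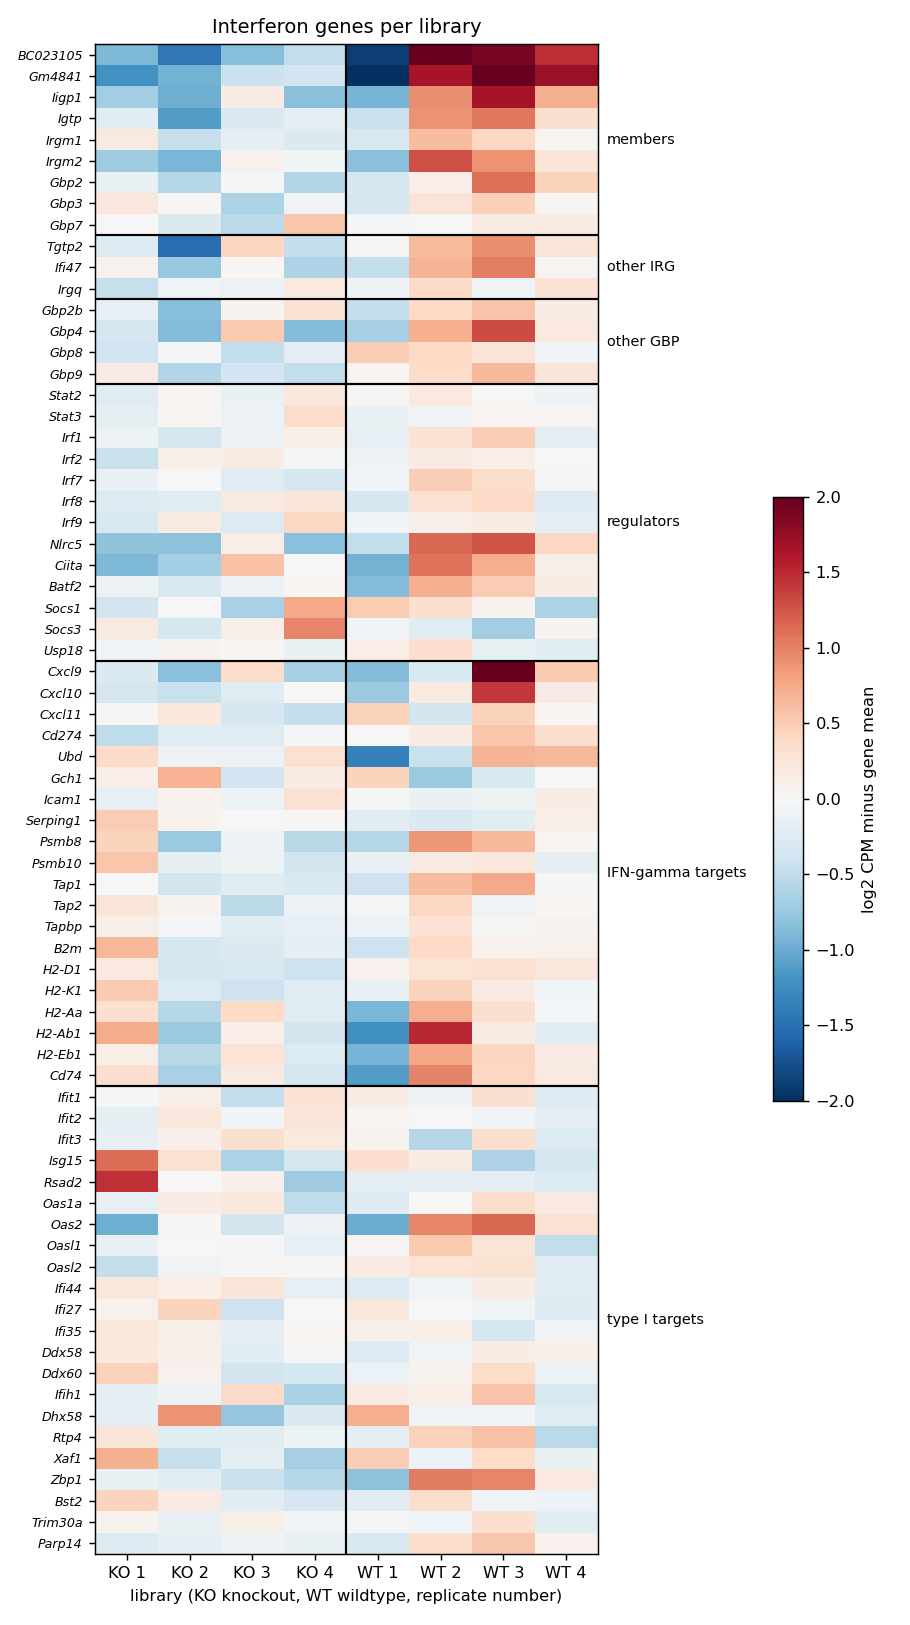
Log2 CPM minus the mean of each gene over the 8 libraries (colour, from blue at -2 to red at 2; larger values take the end colour) for the 9 tested members and other tested genes of the interferon lists (rows) in each library (columns; KO and WT give the label). The median of the 7 members other than BC023105 and Gm4841 was -0.14, -0.57, -0.19 and -0.19 in KO 1 to 4, against -0.36, 0.61, 0.90 and 0.24 in WT 1 to 4, while that of the type I targets was 0.02, 0.09, -0.19 and -0.15 in KO 1 to 4, against 0.00, 0.04, 0.31 and -0.23 in WT 1 to 4.

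The conjugation machinery of autophagy places IRG and GBP proteins on their target membranes. All 13 genes of that list were tested, with a median log2 difference of 0.06 and none past either threshold. Atg12, part of the conjugate that attaches LC3 to membranes, had groups that narrowly did not overlap. It was at 77.8 to 85.7 CPM in the knockout-labelled libraries and 85.8 to 91.6 CPM in the wildtype-labelled ones. Its log2 difference was -0.15 (SE 0.08). In 0.942% of all tested genes the groups did not overlap in that direction. Sqstm1, an autophagy receptor, had a log2 difference of -0.04 (SE 0.12).

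Immune cells in a kidney can also express interferon-inducible GTPases, and their markers were read in the same libraries. The 10 macrophage and dendritic cell markers summed to 123 to 165 CPM in the knockout-labelled libraries, against 123, 184, 171 and 140 CPM in wildtype 1 to 4, and 9 of them were tested with none past the adjusted threshold. Xcr1, a marker of cross-presenting dendritic cells, was at 0.381, 0.319, 0.816 and 0.936 CPM in knockout 1 to 4, against 0.612, 1.94, 1.83 and 1.36 CPM in wildtype 1 to 4, which put wildtype 2, 3 and 4 on top. It was the only 1 of the 9 tested markers of this list with that order, which 4.21% of all tested genes had. Itgax, another dendritic cell marker, was at 1.40, 0.957, 4.38 and 2.27 CPM in knockout 1 to 4, against 0.885, 3.19, 3.41 and 2.52 CPM in wildtype 1 to 4, with knockout 3 highest. Flt3, below the filter, had knockout 3 and knockout 4 above wildtype 4. The log2 difference of Xcr1 was -1.24 (SE 0.45, edgeR adjusted p = 0.957). Csf1r, a macrophage gene, was at 66.2, 83.6, 126 and 80.7 CPM in knockout 1 to 4, against 86.0, 128, 124 and 88.0 CPM in wildtype 1 to 4, so knockout 3 was as high as wildtype 3. Csf1r gave most of the sum of this list, with 128 of 184 CPM in wildtype 2. Other macrophage markers had other orders. C1qa, C1qb and C1qc were highest in knockout 1 (19.6, 13.8 and 11.5 CPM) and lowest in knockout 3 (7.35, 8.46 and 6.46 CPM). Adgre1 was highest in wildtype 2, at 6.26 CPM, and lowest in wildtype 1, at 2.79 CPM.

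The 11 T and NK cell markers summed to 13.0 to 40.3 CPM in the knockout-labelled libraries and 7.14 to 19.5 CPM in the wildtype-labelled ones. Cd8a, a marker of cytotoxic T cells, ranged from 8.69 to 35.8 CPM in the knockout-labelled libraries and from 1.88 CPM in wildtype 2 to 16.5 CPM in wildtype 1. Cd8a gave 35.8 of the 40.3 CPM in knockout 1, so the sum mostly follows this 1 gene. Each other marker of the list was at most at 1.40 CPM in any library, and their orders differed. Cd3e was highest in knockout 2, at 1.40 CPM. Cd4 was highest in wildtype 2, at 1.31 CPM, and lowest in wildtype 1, at 0.204 CPM. The 5 B cell markers summed to 9.42 to 18.9 CPM in the knockout-labelled libraries and 11.1 to 42.9 CPM in the wildtype-labelled ones. The 5 neutrophil markers summed to 1.63 to 8.69 CPM in the knockout-labelled libraries and 0.948 to 9.25 CPM in the wildtype-labelled ones, with Ly6g at 0 in every library except wildtype 1, which had 1 read. The 9 endothelial markers summed to 452 to 515 CPM in the knockout-labelled libraries and 398 to 431 CPM in the wildtype-labelled ones, so their sums did not overlap and were higher under the knockout label. All 9 had a positive log2 difference, and 0 passed the adjusted threshold. At an unadjusted p under 0.05 in edgeR 4 were higher, beside 2.17% of all tested genes. The groups did not overlap in 4 of them, beside 1.03% of all tested genes in that direction. The part of any of these cell types in the result was not tested.

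Genes with the most similar profiles were ranked by Pearson's r of log2 CPM over the 8 libraries among genes with a mean of at least 1 CPM. This is a description with no p, since all genes share these libraries and the likeness rests largely on wildtype 2, 3 and 4. BC023105 was closest to Nup210 (r = 0.981), a nuclear pore protein gene, followed by Trip11 (0.974), Tbc1d8b (0.970), Gm4841 (0.966) and Mllt3 (0.961). Nup210 was at 18.3, 16.7, 17.3 and 20.9 CPM in knockout 1 to 4, against 16.6, 29.0, 26.2 and 25.8 CPM in wildtype 1 to 4, so the same 3 libraries were on top with a much smaller span. Gm4841 was closest to BC023105 (0.966), Eml6 (0.963), Lcp1 (0.957), Tbc1d8b (0.955) and Kl (0.953). The mean profile of the other tested members was closest to Mllt3 (0.989), Sh3glb1 (0.966), Serpina3g (0.960), BC023105 (0.957) and Rbm41 (0.953), with Tap1 at rank 10. Among the members, r with BC023105 was 0.97 for Gm4841, 0.92 for Igtp and Irgm2, 0.91 for Iigp1, 0.87 for Tgtp1, 0.84 for Irgm1, 0.78 for Gbp2, 0.63 for Gbp3 and 0.31 for Gbp7.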

How the data were processed

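The authors deposited whole-number read counts per gene for 8 mouse kidney libraries. Per the submitters' processing notes, STAR, HTSeq and edgeR were used with mm9; versions, annotation and read length were not given in the sources used here. The library kit was directional, per the labels' protocols, while the count files are marked as not stranded, so overlapping and antisense genes cannot be separated. HTSeq summary lines were left out of library sizes: no feature 11.6 to 16.2%, ambiguous 2.05 to 2.31% and not unique 15.8 to 20.9% of all counts with these lines included. The last of these lines holds reads left unassigned because they aligned to several places, which bears on near-copies such as Tgtp1.

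Counts were scaled with TMM and tested in R 4.3.3 with edgeR 4.0.16 (filterByExpr with a minimum count of 10, robust quasi-likelihood fit, knockout minus wildtype, no covariates, Benjamini-Hochberg over 14433 genes, threshold 0.05). limma 3.58.1 and DESeq2 1.42.0 were alternatives. The steps were tested on simulated data. IDs were matched to symbols for 32860 of 37583 genes, and 9 listed symbols found no counted gene and were not analysed here. Gene positions, exon lengths and overlaps were looked up by ID in GENCODE M21 (GRCm38) and not converted from mm9. Shared sequence was measured as the share of 50-base and 100-base transcript words found in another gene, which replaced the planned protein identity. The members and lists were chosen with earlier results of these data known. Named genes are all members and the listed tested genes of the same families. From each other list they are up to 3 genes with the lowest p and up to 2 with the highest mean CPM. The 5 most similar profiles and chromosomal neighbours are also named. Batf2, Cxcl10, Ifit1, Ifit2, Ifit3 and Rsad2, and the marker and expression values that touch a result, are named outside this rule. 1 gene of the list of transcription factors and inhibitors is not reported here.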

Additional observations from a re-analysis of the deposited data

Results flagged for a closer look

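Igtp stood out in 1 knockout-labelled library: knockout 2 was at 10.6 CPM, against 18.9 to 20.3 CPM in the other 3. The gap to the nearest library was 0.857 of the range of the group, above Dixon's 95% critical value for 4 libraries. Of 34 groups checked 1 was marked in this way, and chance marks about 1 in 20. Knockout 2 is also 1 of the 2 libraries with adrenal transcripts and 1 of the 2 with high heat-shock transcripts.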

How the results depend on the processing

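The alternatives were other scaling, other filters, DESeq2, limma-voom, the replicate number as a block, each library left out in turn, and 3 pairs of libraries left out (adrenal, heat-shock and clock-shifted; the last was chosen after seeing the data). Over 134 alternative values of the 8 members other than BC023105 and Gm4841, 132 were negative and 0 passed, with a lowest adjusted p of 0.444. The 2 exceptions were Gbp7 at 0.00 without knockout replicate 2 and 0.06 without knockout replicate 3; its leave-one-out range was -0.33 to 0.06. The median of the 7 tested others ran from -0.95 to -0.44. BC023105 ran from -2.89 to -1.93 and Gm4841 from -2.72 to -1.54. Tgtp1 had values in the 8 alternatives whose filter it passed. The number of genes called was 0 with edgeR, 4 with DESeq2 (1 higher, 3 lower) and 1 without the heat-shock libraries; leaving out 1 library gave 0 to 2, with 1 without knockout replicate 3, 1 without knockout replicate 4 and 2 without wildtype replicate 1. The cause was not tested. With the replicate block edgeR called 0 genes, with 1075 at an unadjusted p under 0.05 against 578 without it, and Iigp1 was at -1.23 (adjusted p = 0.661). Same-numbered libraries had deviations correlated at 0.226, -0.230, 0.282 and 0.293 for replicates 1 to 4; with replicate 2 negative and not every library closest to its own number, the numbers were not taken as pairs, though these values do not exclude a shared source. Depth limits Tgtp1, Gm4841 and the interferon genes, which had few reads.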
